A study of Mus musculus with 15 samples.

Results

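The comparison described here sets fibroblasts with the p53 change N236S against fibroblasts with wild-type p53 in generation 5 of mice bred without telomerase and without the Wrn helicase. It used 6 of the 15 RNA-seq libraries of the series, 3 of each genotype, picked by their labels. The wild-type p53 group, G5DM, has the genotype mTR-/-Wrn-/-p53WT. The mutant group, G5TM, has the genotype mTR-/-Wrn-/-p53N236S/N236S, so that both alleles of p53 carry the change. Loss of mTR (the gene Terc, which encodes the RNA template of telomerase) and loss of Wrn are thus shared by both groups. The cells were mouse embryonic fibroblasts (MEFs), a mixed population of connective tissue cells taken from embryos of day 13.5 and grown in DMEM with 10% serum at 37 °C, 5% CO2 and 3% O2. Polyadenylated RNA was sequenced. The series asks how this p53 mutant acts on the ageing traits of mice that model Werner syndrome. The labels do not say whether the 3 libraries of a group came from separate embryos or cultures. By their sex-linked genes each group held libraries of both sexes, so they did not all come from the same embryo. The p-values measure the spread between these libraries, which may be technical in part. The series' design also names control MEFs, which are not analysed here.

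The transcription factor p53 binds DNA as a tetramer and switches on genes for cell cycle arrest, apoptosis and repair when DNA is damaged or telomeres become too short. One of its targets, the kinase inhibitor p21 (Cdkn1a), keeps the pocket proteins p107 and p130 active. These join E2F4, a DP partner and the MuvB core to form the DREAM complex, which holds cell cycle genes silent. In cycling cells the same MuvB core binds B-Myb (Mybl2) and Foxm1 instead, forms the MMB complex and activates genes of late S, G2 and M phase. Telomerase and the Wrn helicase, together with the replication polymerases and the shelterin and CST complexes, maintain chromosome ends, and loss of Wrn causes Werner syndrome, a disease of early ageing in humans.

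Some features of the libraries touch every result below. Read numbers recovered from the table ran from 17448588 to 25933487 over the 6 libraries. Summed FPKM (fragments divided by gene length and library size, the unit of the table) was 221056 to 301713 in G5DM and 321044 to 420883 in G5TM. G5DM replicate 1 stood apart from its group. On the first principal component, which held 80.7% of the variance, it lay at −19.8, its fellows at −76.9 and −78.0, and the G5TM libraries at 44.8 to 67.5. X-linked Xist was expressed in G5DM replicate 1 and G5TM replicates 2 and 3, and Y-linked genes in the other 3 libraries, so each group mixed the sexes. The 3 G5TM libraries, with those of G3TM (the same genotype in generation 3), differed from the other 9 of the series in a set of transcripts described further on. Within generations 3 and 5 that division and the p53 genotype cannot be told apart, while the G1TM libraries, also p53 mutant, lay with the other 9.

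The label of the cells was checked against 12 fibroblast markers, among them Col1a1, Pdgfra and Thy1. Their summed level was 2752 to 3245 FPKM in G5DM and 2714 to 2922 in G5TM, and none was at 0. Of the 12, 6 were lower in G5TM and none higher (median log2 difference −0.60). Leukocyte markers summed to 60.9 to 87.0 FPKM in G5DM and 28.6 to 132 in G5TM, with Ptprc, Itgam, Aif1 and Fcgr1 under 1 FPKM in all 6 libraries and none of the 10 tested called. Endothelial markers summed to 4.87 to 9.82 FPKM over the 6, with Pecam1, Cdh5 and 6 others under 1 in all. Erythroid markers summed to at most 0.858. In such bulk samples, fewer cells of a type and less RNA per cell cannot be told apart.

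Of 54495 genes in the table, 12848 reached 1 FPKM in 2 or more of the 6 libraries and were tested. Between the genotypes 6397 genes changed (49.8%, adjusted p under 0.05, limma), of which 3424 were higher in G5TM (26.7%) and 2973 lower (23.1%). The 3 G5TM libraries lay wholly above the 3 G5DM libraries for 3930 genes (30.6%) and wholly below for 3698 (28.8%), so that 7628 genes (59.4%) did not overlap. Both criteria were met by 6148 genes, 1480 did not overlap but missed the test, and 249 were called although the groups overlapped. All differences here are of log2(FPKM + 1), G5TM minus G5DM. A value printed with ± is such a difference with its standard error. This scale understates the change of genes near or under 1 FPKM. Called differences passed 1 log2 unit upward in 2274 genes and downward in 1654, and 2 log2 units in 433 and 180. The median over all genes tested was 0.04.

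The direction of this count depended on scale. With FPKM rescaled to the same sum in every library, the median of all genes moved to −0.43, and 1951 genes were higher and 4797 lower (28.9% of calls higher, against 53.5%). Without G5DM replicate 1, 8538 genes were called, 4454 higher and 4084 lower. Without G5DM replicate 2 the count was 3689, without G5TM replicate 1 it was 3848, and without G5TM replicate 3 it was 4112.

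Gene length and base composition moved with the genotype difference. Among the tenth of genes with the longest gene length (9442 bases or more in the table), 56.0% were lower and 2.8% higher, with a median difference of −0.76. In the second decile (873 to 1768 bases) 49.5% were higher and 9.65% lower, with a median of 0.71. For GC content of the longest transcript, the lowest decile had 54.6% lower (median −0.84) and the highest 59.8% higher (median 0.91). The trend was present between single libraries too. In the highest GC decile the median log2(FPKM + 1) was 2.68 and 2.66 in G5DM replicates 2 and 3, 3.20 in G5DM replicate 1, and 3.74, 3.75 and 3.93 in G5TM. When a smooth trend on length and GC content was removed from each library, 4924 genes were called, 2865 higher (22.3%) and 2059 lower (16%), and 3508 of the main calls recurred in the same direction. Values after this removal are called values with the trend removed.

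**Figure D1:**
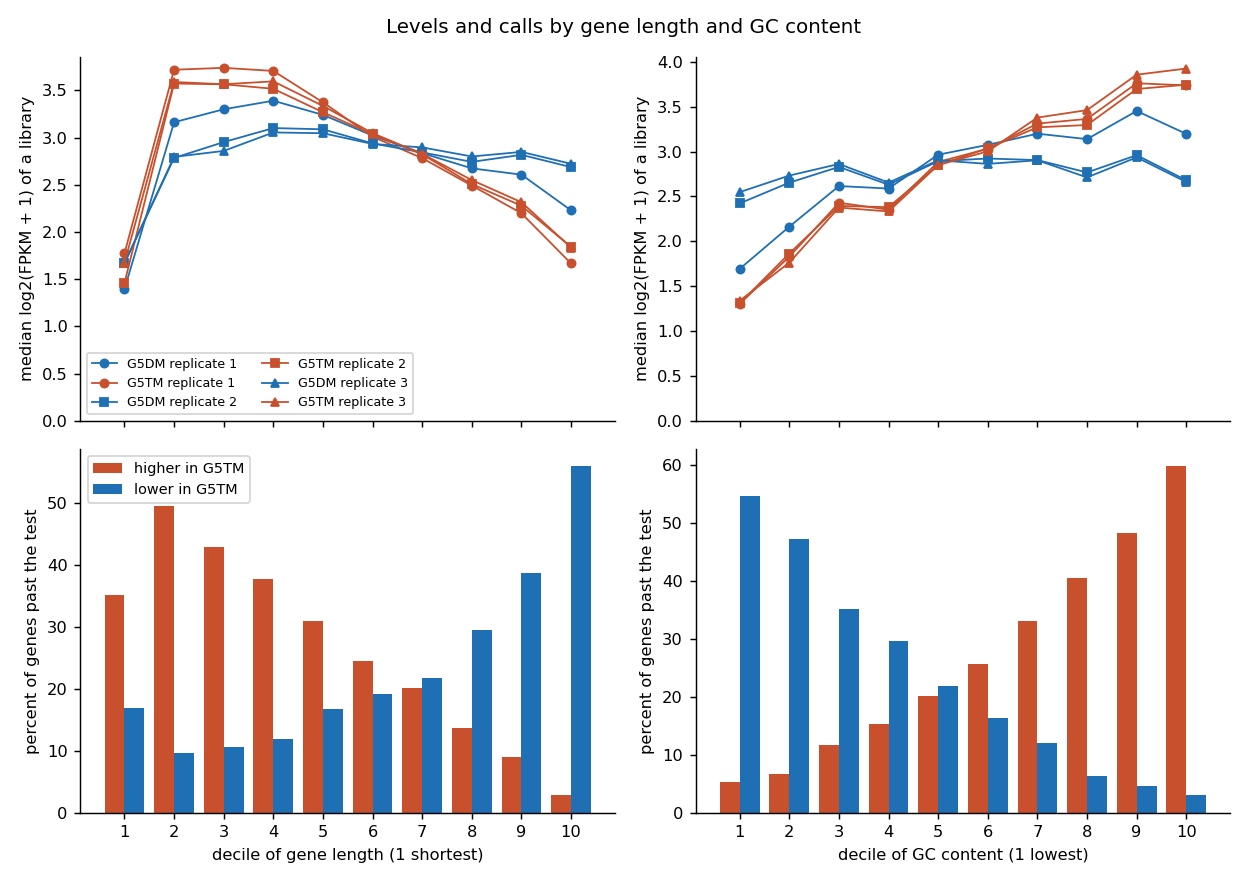
Upper plots: median log2(FPKM + 1) of each of the 6 generation 5 libraries by decile of gene length or GC content. Lower plots: percent of genes in each decile higher or lower in G5TM at an adjusted p under 0.05 (limma). From the second to the fifth length decile and in the GC-rich deciles the G5TM lines run above G5DM, and in the long and GC-poor deciles below it, with G5DM replicate 1 between.

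The deleted and altered genes came first. Wrn and Terc were below the filter: Wrn was 0.0802, 0.274 and 0.599 FPKM in G5DM, against 0.113, 0.196 and 0.118 in G5TM, and Terc, whose RNA lacks a polyA tail, was above 0 in G5DM replicate 2 alone (0.109). Trp53 itself (ENSMUSG00000059552, chromosome 11, 69580359 to 69591873) was 57.1, 32.2 and 34.9 FPKM in G5DM, against 78.7, 53.2 and 91.3 in G5TM. The groups overlapped, since G5DM replicate 1 lay above G5TM replicate 2, and the difference of 0.84 ± 0.31 just missed the test (adjusted p = 0.0501). It passed without G5DM replicate 1 (1.09, adjusted p = 0.00751). FPKM sums over both alleles and does not read the changed codon, so it does not check the N236S label.

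Ccng1 and Mdm2, genes of the p53 feedback loop, fell in the mutant. Ccng1 (ENSMUSG00000020326, chromosome 11, 40748552 to 40755311), which encodes cyclin G1 and is a direct p53 target, was 193, 326 and 251 FPKM in G5DM, against 6.16, 7.03 and 5.10 in G5TM. That is 42.1-fold less on the FPKM means, and a difference of −5.16 ± 0.26, adjusted p = 1.98e-05, the largest fall of any protein-coding gene tested. Mdm2 (ENSMUSG00000020184, chromosome 10, 117688875 to 117710758), the ubiquitin ligase that degrades p53 and is itself switched on by it, was 23.6, 50.6 and 37.4 FPKM in G5DM, against 4.80, 5.399 and 3.50 in G5TM (−2.73 ± 0.29, adjusted p = 0.000652). Every G5TM library lay below every G5DM library in both genes. The Mdm2 relative Mdm4 was lower as well (1.60, 6.70 and 9.13 against 0.840, 1.06 and 0.990 FPKM, −1.58 ± 0.44, adjusted p = 0.0181), but not after the length and GC trend was removed (−0.40, adjusted p = 0.283). Of 10 tested members of the list of p53 and its regulators, 5 fell and 1 rose, the phosphatase gene Ppm1d (0.56 ± 0.17, adjusted p = 0.0238). Their median of −0.58 was 0.08 with the trend removed, where 2 were lower and 1 higher.

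The 61 tested p53-activated genes came from 3 lists that share Bbc3. Of them 32 fell (52.5%, against 23.1% of all genes tested), 12 rose (19.7%, against 26.7%) and 17 did not pass. Their median difference was −0.85, against 0.04 for all genes tested. With the trend removed, 34 were lower and 5 higher, with a median of −0.84. Without G5DM replicate 1 the counts were 34 and 13.

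Arrest genes made up 13 of these, with 6 lower and 3 higher (46.2% and 23.1%, against 23.1% and 26.7% of all genes tested). Cdkn1a (ENSMUSG00000023067, chromosome 17, 29090976 to 29100727) was 216, 131 and 86.2 FPKM in G5DM, against 7.38, 8.03 and 12.8 in G5TM, a difference of −3.74 ± 0.36, adjusted p = 0.000497. Its lowest G5DM library stood at 86.2 and its highest G5TM library at 12.8. Ptprv, a receptor phosphatase gene, was 23.2, 20.5 and 19.7 FPKM in G5DM, against 0.395, 0.450 and 0.281 in G5TM (−4.01 ± 0.17, adjusted p = 6.64e-06), with little spread in either group. Psrc1, a spindle protein gene (24.2, 22.9 and 26.8 against 2.75, 4.31 and 4.49 FPKM, −2.42 ± 0.21, adjusted p = 0.000398), and the antiproliferative gene Btg2 (15.5, 18.3 and 14.6 against 3.13, 5.08 and 2.78, −1.90 ± 0.23, adjusted p = 0.000947) fell too. The 3 that rose were the stress genes Gadd45b (15.2, 5.96 and 8.74 FPKM in G5DM, against 40.5, 30.3 and 45.2 in G5TM, 1.92 ± 0.32, adjusted p = 0.00279) and Gadd45g (2.11 ± 0.29, adjusted p = 0.00149), and the kinase gene Plk3 (0.65 ± 0.22, adjusted p = 0.0381). Both Gadd45 genes kept their rise after removal of the trend (1.02 and 0.99), while Plk3 did not pass there (−0.19, adjusted p = 0.503).

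Of 17 apoptosis genes, 10 fell and 3 rose (58.8% and 17.6%, against 23.1% and 26.7% of all genes tested). The stress-induced gene Trp53inp1 was 5.11, 25.6 and 24.0 FPKM in G5DM, against 0.123, 0.426 and 0.165 in G5TM (−3.70 ± 0.50, adjusted p = 0.00147). G5DM replicate 1 was the low library of its group. The death receptor gene Eda2r was 11.2, 16.7 and 13.9 FPKM in G5DM, against 0.156, 0.206 and 0.263 in G5TM (−3.61 ± 0.20, adjusted p = 2.72e-05). The BH3-only gene Pmaip1, or Noxa, was 14.3, 26.5 and 20.04 FPKM in G5DM, against 0.741, 0.4998 and 1.15 in G5TM (−3.54 ± 0.25, adjusted p = 0.000138). Neither overlapped, and each was at 1.15 FPKM or less in every mutant library. Perp, a membrane protein of the p53 death pathway, was 66.7, 38.8 and 21.1 FPKM in G5DM, against 3.55, 2.40 and 1.86 in G5TM (−3.46 ± 0.38, adjusted p = 0.00073). Zmat3, an RNA-binding zinc finger gene, was 22.9, 22.9 and 22.8 against 3.36, 3.85 and 4.44 FPKM (−2.29 ± 0.18, adjusted p = 0.000246), and the death receptor gene Fas was 6.40, 7.41 and 5.61 against 1.26, 1.19 and 0.892 (−1.82 ± 0.18, adjusted p = 0.000585). Against this direction, Bax, the pore-forming executioner of apoptosis, was 86.7, 44.2 and 36.1 FPKM in G5DM, against 203, 154 and 167 in G5TM (1.73 ± 0.35, adjusted p = 0.00525). Bbc3, or Puma, was 5.61, 4.33 and 3.86 FPKM in G5DM, against 12.9, 18.5 and 10.54 in G5TM (1.40 ± 0.24, adjusted p = 0.00308). Bax has 1576 bases and 63.5% GC in its transcript, and Bbc3 2124 bases and 65.2%. Neither passed after removal of that trend (0.51, adjusted p = 0.102, and 0.23, adjusted p = 0.433). Siva1 was the remaining riser (1.08 ± 0.29, adjusted p = 0.0152).

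In the metabolism and repair list, 16 of 32 fell and 7 rose. The epoxide hydrolase gene Ephx1 was 227, 151 and 109.7 FPKM in G5DM, against 14.1, 22.0 and 15.5 in G5TM (−3.13 ± 0.32, adjusted p = 0.00058). Polk, which encodes the translesion polymerase kappa, was 4.43, 10.9 and 11.5 against 0.728, 1.39 and 0.976 FPKM (−2.21 ± 0.32, adjusted p = 0.00184), and the nuclease gene Ercc5 fell by 1.72. The stress gene Sesn2, whose product restrains mTORC1, was 32.9, 21.5 and 16.2 against 5.34, 12.5 and 8.34 (−1.34 ± 0.34, adjusted p = 0.0123). Trp53i13, named as p53-induced, rose instead (6.52, 3.68 and 5.09 FPKM to 23.3, 26.0 and 23.9, 2.08 ± 0.22, adjusted p = 0.000632). The 7 risers, Bbc3 counted in this list too, ranged from 0.57 (Gls2) to 2.08 (Trp53i13), and 2 members were higher after the trend was removed.

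**Figure D2:**
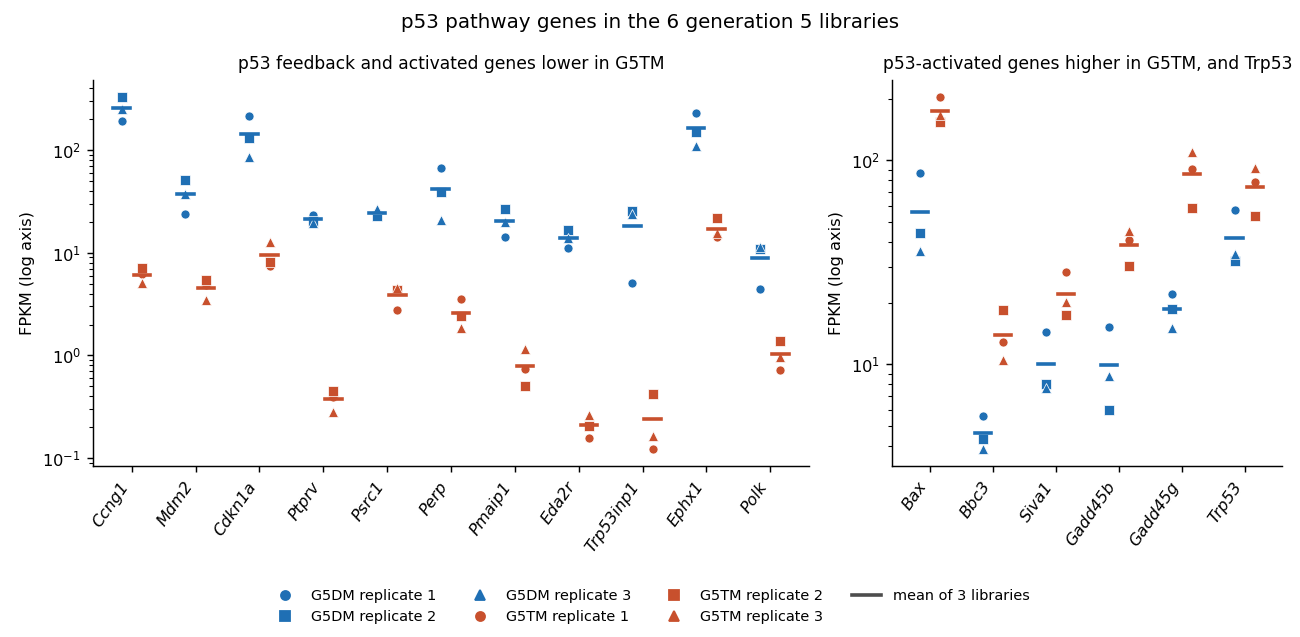
FPKM (log axis) of p53 feedback and target genes in each generation 5 library, G5DM in blue and G5TM in red, with the mean of 3 libraries as a bar. Ccng1, Cdkn1a and the other 9 genes of the left plot do not overlap between the groups. In the right plot Trp53 overlaps, while Bax, Bbc3, Siva1, Gadd45b and Gadd45g are higher in every G5TM library.

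Promoter sequence was set beside these changes. In RefSeq promoter windows of GRCm38.p6 (250 bases before to 50 after a transcription start), both strands were searched for the p53 consensus of 20 bases, with its 4 core letters fixed and up to 2 mismatches elsewhere. It occurred in 0.326% of 32851 windows. Windows were found for 47 of the 61 tested p53-activated genes, and 4 of these genes held a match in 6.78% of their 59 windows. Of the 23 that fell and had a window, 3 held one (Cdkn1a, Cd80 and Zfp365), as did Ccng1 of the regulators. Their stretches are shown because these genes fell. Each runs 60 bases 5′ to 3′ within the part before a RefSeq start, with the match in capitals.
Ccng1 (chr11:40755442-40755501, minus strand): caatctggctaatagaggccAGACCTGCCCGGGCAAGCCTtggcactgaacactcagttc
Cdkn1a (chr17:29090908-29090967, plus strand): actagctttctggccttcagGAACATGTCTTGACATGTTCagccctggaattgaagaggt
Cd80 (chr16:38458802-38458861, plus strand): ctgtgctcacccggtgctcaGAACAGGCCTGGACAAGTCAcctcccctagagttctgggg
Zfp365 (chr10:67912686-67912745, minus strand): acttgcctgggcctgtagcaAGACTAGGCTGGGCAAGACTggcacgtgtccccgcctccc
The matches to Ccng1 and Cdkn1a carried 1 mismatch each and those to Cd80 and Zfp365 carried 2. Cd80, a costimulatory ligand, fell by 2.09 and Zfp365, a genome stability gene, by 1.59. A match is a description of these letters, and its absence says only that they are not in this window.

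The DREAM and MMB subunits were led by Mybl2, the B-Myb gene. Mybl2 (ENSMUSG00000017861, chromosome 2, 163054687 to 163084688) was 5.55, 1.91 and 3.40 FPKM in G5DM, against 22.3, 10.6 and 30.9 in G5TM (2.23 ± 0.41, adjusted p = 0.00379). Foxm1 (ENSMUSG00000001517, chromosome 6, 128362967 to 128376146) was 14.0, 9.15 and 14.6 FPKM in G5DM, against 25.8, 20.4 and 32.1 in G5TM (1.00 ± 0.26, adjusted p = 0.0135). Neither overlapped between the groups. Among the repressive members Rbl2, which encodes p130, was 4.05, 5.29 and 5.66 FPKM in G5DM, against 1.30, 2.65 and 1.16 in G5TM (−1.18 ± 0.24, adjusted p = 0.00578). The DNA-binding MuvB subunit Lin54 also fell (−0.71), while Lin37 (1.02 ± 0.23, adjusted p = 0.00789), E2f4 (0.85) and the histone chaperone gene Rbbp4 (0.83) rose. With the trend removed, Lin54 (0.04, adjusted p = 0.831), Lin37 (0.12, adjusted p = 0.511) and E2f4 (0.15, adjusted p = 0.509) did not pass. In total 5 of 14 subunits rose (35.7%, against 26.7% of all genes tested), 2 fell (14.3%, against 23.1%) and 7 did not pass. Their median was −0.14. At the same FPKM sum 1 was higher and 7 lower. Rb1, the retinoblastoma gene, was 1.83, 5.397 and 4.52 FPKM in G5DM, against 0.234, 0.311 and 0.426 in G5TM (−1.81 ± 0.30, adjusted p = 0.00278). It was the single faller of 13 E2F and pocket protein genes (7.69%). The list had 4 risers (30.8%, near the 26.7% of all genes tested). Cdkn2d, the inhibitor p19 of cyclin D kinases, rose (8.10, 5.63 and 6.26 to 29.5, 30.1 and 36.3 FPKM, 2.11 ± 0.21, adjusted p = 0.000545). Cdkn2a, which encodes p16 and p19Arf, was 34.0, 25.6 and 15.3 FPKM in G5DM, against 114, 144 and 34.9 in G5TM (1.77 ± 0.52, adjusted p = 0.022). G5TM replicate 3 nearly met G5DM replicate 1 there, and the call was lost after removal of the trend (0.63, adjusted p = 0.347).

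Mitotic genes rose more often than they fell in the mutant. Among 64 tested G2/M genes that DREAM or MMB controls, 33 rose (51.6%), 3 fell (4.69%) and 28 did not pass. Over all genes tested 26.7% rose and 23.1% fell. The list's median was 0.89. Cdc20, the activator of the anaphase-promoting complex, was 49.7, 28.9 and 40.5 FPKM in G5DM, against 195, 132 and 263 in G5TM (2.26 ± 0.33, adjusted p = 0.00183). The kinetochore gene Spc24 (4.26, 2.10 and 3.52 against 25.2, 17.1 and 24.9 FPKM, 2.46 ± 0.26, adjusted p = 0.000632) and Pimreg, a mitotic regulator (13.5, 7.61 and 11.9 against 68.9, 50.5 and 60.6, 2.37 ± 0.26, adjusted p = 0.000692), rose most. None of these 3 overlapped. The kinase genes Plk1 (35.0, 19.03 and 30.7 against 104, 80.2 and 155, 1.95 ± 0.33, adjusted p = 0.0028) and Cdk1 (14.2, 10.2 and 13.8 against 41.1, 24.4 and 35.8, 1.32 ± 0.26, adjusted p = 0.00455) and the survivin gene Birc5 (2.08 ± 0.29, adjusted p = 0.00159) rose with them.

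The members that did not rise were longer and poorer in GC. The 33 that rose had a median length of 3402 bases and 50.3% GC, and the other 31 had 6341 bases and 42.7%. Mki67, the Ki-67 gene, was 6.24, 20.8 and 41.3 FPKM in G5DM, against 6.02, 5.60 and 7.51 in G5TM (−1.36 ± 0.54, adjusted p = 0.0625). The kinesin gene Cenpe was 1.77, 8.21 and 15.0 FPKM in G5DM, against 2.25, 1.58 and 3.18 in G5TM (−1.18 ± 0.55, adjusted p = 0.1). Within G5DM these long genes were low in replicate 1, and neither passed. The 3 that fell were Depdc1a (−1.44), Ckap2 (−1.06) and Hmmr (−1.01). With the trend on length and GC content removed, 44 of the 64 were higher and 1 lower (median 0.85). Without G5DM replicate 1, 34 were higher and 14 lower, and at the same FPKM sum 21 and 7.

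Genes of the G1/S transition followed. Of 50 tested G1/S targets of DREAM and E2F, 26 rose and 2 fell (52.0% and 4.0%, against 26.7% and 23.1% of all genes tested). Their median was 0.82, and 32 rose and 1 fell after removal of the trend. Tk1, the thymidine kinase of the salvage pathway, was 8.77, 5.49 and 8.70 FPKM in G5DM, against 53.1, 28.0 and 50.7 in G5TM (2.35 ± 0.30, adjusted p = 0.00115). Mcm5, a subunit of the replicative helicase, was 22.2, 9.19 and 15.5 FPKM in G5DM, against 83.3, 45.2 and 109 in G5TM (2.26 ± 0.40, adjusted p = 0.00321). The dUTPase gene Dut was 10.0, 7.47 and 9.34 FPKM in G5DM, against 52.2, 34.0 and 43.6 in G5TM (2.14 ± 0.23, adjusted p = 0.00068). All 3 mutant libraries exceeded all 3 wild-type ones in each. Pcna, the sliding clamp gene, was 40.9, 28.3 and 35.8 against 107, 63.4 and 78.0 FPKM (1.20 ± 0.27, adjusted p = 0.00838).

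Promoters of the cell cycle lists were searched for the CHR element TTTGAA, which MuvB binds, the CCAAT box CCAAT, and the E2F sites TTTCCCGC or TTTGGCGC, on both strands. No motif contains another. The CHR was found in 17.9% of all windows and in 68.4% of 57 windows of 53 tested G2/M targets, and CCAAT in 37.4% and 80.7%. G2/M targets that rose held the CHR in 69.2% of windows, and those that did not pass in 64.3%. An E2F site was found in 1.56% of all windows, in 29.8% of 47 windows of 39 tested G1/S targets, and in none of those of the G2/M list. G1/S targets that rose held it in 25.9% of windows, and those that did not pass in 35.0%. The lists were assembled from known targets of these factors, so these shares describe the lists. Stretches of 60 bases before a RefSeq start are shown for the members of largest rise with a match there, a CHR (Cdc20, Kif22, Ccnb2 and Ube2c) or an E2F site (Mcm5, Cdc6 and Mcm6), the motif in capitals.
Cdc20 (chr4:118437344-118437403, minus strand): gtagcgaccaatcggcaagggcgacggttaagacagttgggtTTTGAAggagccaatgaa
Kif22 (chr7:127042421-127042480, minus strand): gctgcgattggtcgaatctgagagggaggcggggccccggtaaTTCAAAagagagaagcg
Ccnb2 (chr9:70421689-70421748, minus strand): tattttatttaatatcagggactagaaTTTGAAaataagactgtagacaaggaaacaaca
Ube2c (chr2:164769869-164769928, plus strand): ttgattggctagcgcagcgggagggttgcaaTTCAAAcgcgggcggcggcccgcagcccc
Mcm5 (chr8:75109334-75109393, plus strand): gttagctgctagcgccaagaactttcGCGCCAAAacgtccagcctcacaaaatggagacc
Cdc6 (chr11:98907987-98908046, plus strand): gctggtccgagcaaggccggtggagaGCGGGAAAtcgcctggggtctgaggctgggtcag
Mcm6 (chr1:128359719-128359778, minus strand): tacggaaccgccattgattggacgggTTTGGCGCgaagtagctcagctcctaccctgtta
In Cdc20 and Kif22 the last base of the CHR lay 13 and 12 bases before the start. These genes differed by 2.26 (Cdc20), 1.70 (Kif22), 1.68 (Ccnb2), 1.47 (Ube2c), 2.26 (Mcm5), 1.40 (Cdc6) and 1.33 (Mcm6) log2 units.

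The machinery that copies chromosome ends was described from the polymerases outward. Of 33 DNA polymerase, clamp and clamp loader genes, 19 rose and 1 fell (57.6% and 3.03%, against 26.7% and 23.1% of all genes tested). Their median was 0.87, and 23 rose and none fell with the trend removed. Pold2 (ENSMUSG00000020471, chromosome 11, 5872180 to 5878292), an accessory subunit of polymerase delta, was 18.2, 7.75 and 10.1 FPKM in G5DM, against 149.7, 106 and 164 in G5TM (3.49 ± 0.33, adjusted p = 0.00049), 11.6-fold higher on the means. The catalytic subunit gene Pold1 was 9.80, 5.31 and 7.76 against 37.4, 28.0 and 53.5 FPKM (2.22 ± 0.30, adjusted p = 0.00136), and the clamp loader gene Rfc4 5.75, 2.77 and 5.48 against 20.7, 15.8 and 17.3 (1.78 ± 0.26, adjusted p = 0.00183). None of these overlapped.

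Telomere proteins were divided by complex. Of 21 tested shelterin, CST and telomerase genes, 7 rose (33.3%, against 26.7% of all genes tested) and 1 fell. Their median was 0.21, which turned to −0.31 with FPKM rescaled to the same sum. The 3 largest rises were proteins of box H/ACA particles, which bind telomerase RNA and also the guide RNAs of ribosomal RNA modification. Nhp2 was 75.8, 30.9 and 24.8 FPKM in G5DM, against 319.9, 127 and 311 in G5TM (2.55 ± 0.49, adjusted p = 0.00453). Gar1 was 8.37, 5.82 and 6.08 against 48.3, 26.4 and 45.8 FPKM (2.37 ± 0.28, adjusted p = 0.000862), and Nop10 32.4, 15.1 and 14.0 against 96.7, 67.6 and 84.3 (2.05 ± 0.34, adjusted p = 0.00256). Dyskerin (Dkc1), the enzyme of the same particle, was 8.09, 9.55 and 9.89 FPKM in G5DM, against 14.7, 8.24 and 14.0 in G5TM and did not pass (0.35 ± 0.25, adjusted p = 0.249). In shelterin, Acd, or TPP1 (1.02 ± 0.25, adjusted p = 0.0109, and 0.43, adjusted p = 0.0809, with the trend removed), and Tinf2 (0.86 ± 0.20, adjusted p = 0.00931) rose, and Ten1 of the CST complex rose by 1.31. The shelterin genes that bind telomeric DNA did not pass. Terf1 was 0.553, 1.86 and 2.68 FPKM in G5DM, against 1.34, 1.23 and 1.499 in G5TM, and Pot1a 1.28, 1.31 and 1.67 FPKM in G5DM, against 0.982, 1.35 and 1.28 in G5TM, with overlap in both. Tert, the reverse transcriptase, was low and fell (1.14, 2.34 and 2.48 against 0.513, 1.00 and 0.613 FPKM, −0.78 ± 0.25, adjusted p = 0.0305).

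Among 20 RecQ helicases and telomere nucleases, 4 rose and 3 fell (20% and 15.0%, against 26.7% and 23.1% of all genes tested). After trend removal 7 were higher and none lower, and their median of −0.11 was 0.30. Recql4 (1.88, 1.38 and 2.14 against 5.02, 4.72 and 6.92 FPKM, 1.22 ± 0.21, adjusted p = 0.00278) and the nuclease subunit gene Eme1 (2.51, 1.64 and 2.58 against 7.12, 6.92 and 9.98, 1.47 ± 0.21, adjusted p = 0.00182) rose without overlap, while Blm, the Bloom syndrome helicase, did not pass (−0.30). Atrx, a chromatin remodeller of telomeres, was 1.42, 8.71 and 12.1 FPKM in G5DM, against 0.572, 0.788 and 1.201 in G5TM (−1.88 ± 0.55, adjusted p = 0.0212). Its G5DM replicate 1 was close to the mutant, and the call was lost after removal of the trend (−0.26, adjusted p = 0.521). Homologous recombination and Fanconi anaemia had 8 of 26 genes higher (30.8%, near the 26.7% of all genes) and none lower (median 0.19, or −0.18 at the same FPKM sum). They were led by Fance (1.70 ± 0.29, adjusted p = 0.00298), Faap24 (1.34) and Fancf (1.25). With the trend removed, 13 were higher, and Fance measured 0.84, while Fancf did not pass (0.35, adjusted p = 0.0972).

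End joining had 3 risers and 3 fallers of 13 (23.1% each, near the 26.7% and 23.1% of all genes tested). The long genes Prkdc, the DNA-dependent protein kinase (−1.16), and Rif1, a resection inhibitor (−1.15), were lower, and the shieldin partner Mad2l2 higher (1.63). Once the trend was removed, Prkdc measured −0.04 and Rif1 0.07, neither past the test (adjusted p = 0.862 and 0.841). Damage checkpoint genes had 4 higher and 3 lower of 14 (28.6% and 21.4%), shares near those of all genes too. H2afx, which encodes the histone phosphorylated at breaks, was 71.9, 39.5 and 51.1 FPKM in G5DM, against 267, 223 and 301 in G5TM (2.29 ± 0.29, adjusted p = 0.00116). The kinase gene Atm was 2.18, 7.23 and 7.49 FPKM in G5DM, against 0.569, 0.720 and 0.996 in G5TM (−1.79 ± 0.36, adjusted p = 0.00551). The latter fell also with the trend removed (−0.75, adjusted p = 0.0324).

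**Figure D3:**
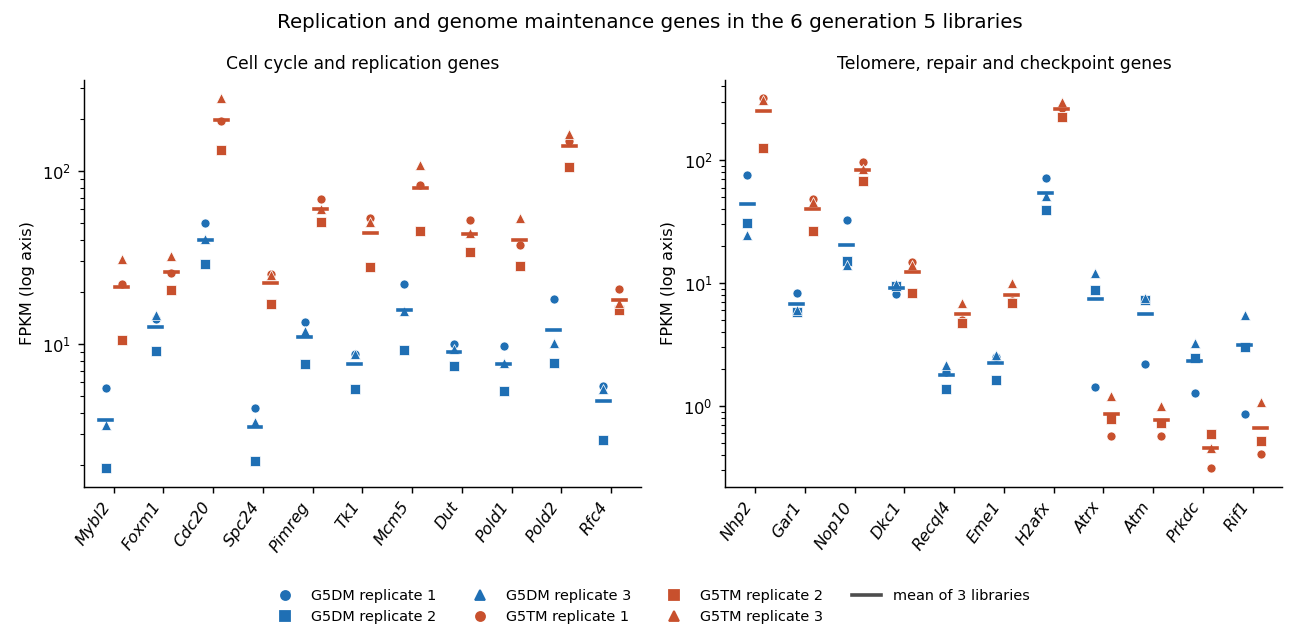
FPKM (log axis) of cell cycle, replication, telomere and repair genes in each generation 5 library, G5DM in blue and G5TM in red, with group means as bars. All genes of the left plot are higher in every G5TM library. In the right plot Dkc1 and Rif1 overlap, and Atrx, Atm, Prkdc and Rif1 have G5DM replicate 1 nearest to the mutant libraries.

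Genes tied to senescence were described next. Lmnb1 (lamin B1), a nuclear lamina gene that falls in senescent cells, was 22.3, 14.7 and 28.0 FPKM in G5DM, against 84.5, 62.0 and 96.2 in G5TM (1.88 ± 0.29, adjusted p = 0.00228). Among 24 nuclear lamina and senescence chromatin genes 8 rose (33.3%, against 26.7% of all genes tested) and 1 fell. The median of 0.46 became −0.07 at the same FPKM sum. The chromatin protein gene Hmga1 was 171, 52.98 and 68.8 FPKM in G5DM, against 857, 432 and 1043 in G5TM (3.08 ± 0.50, adjusted p = 0.00248). Banf1, a DNA-bridging protein of the nuclear envelope, was 81.3, 37.3 and 40.5 FPKM in G5DM, against 454, 291 and 421 in G5TM (2.91 ± 0.36, adjusted p = 0.00103). Each was higher in all mutant libraries.

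Secretory factors of senescence had 12 of 35 lower and 6 higher (34.3% and 17.1%, against 23.1% and 26.7% of all genes tested). The monocyte chemokine gene Ccl7 was 64.4, 213 and 92.0 FPKM in G5DM, against 22.6, 17.6 and 12.5 in G5TM (−2.59 ± 0.43, adjusted p = 0.00263). Ccl8 was 3.47, 21.9 and 2.58 FPKM in G5DM, against 0.959, 0.216 and 0.466 in G5TM (−2.24 ± 0.61, adjusted p = 0.017), where G5DM replicate 2 was far above its fellows. Osteopontin (Spp1) was 188, 914 and 721 FPKM in G5DM, against 137, 146 and 86.4 in G5TM (−2.05 ± 0.56, adjusted p = 0.0175). The groups did not overlap in these 3, yet Ccl8 and Spp1 missed the test in some of the alternatives (adjusted p up to 0.0795 and 0.0791). Among the 6 that rose were the urokinase receptor gene Plaur (34.0, 15.4 and 11.6 to 100.7, 38.1 and 119.7 FPKM, 2.02 ± 0.50, adjusted p = 0.0114) and Igfbp6 (1.60), the latter not past the test with the trend removed (0.43, adjusted p = 0.182). Il6, Il1a and Il1b were below the filter. Of 25 interferon-stimulated genes 3 rose (12.0%) and 2 fell (8.0%), against 26.7% and 23.1% of all genes tested. Without G5DM replicate 1, 17 were lower. Irf1 rose (3.86, 3.71 and 3.15 to 9.48, 8.36 and 9.15, 1.13 ± 0.17, adjusted p = 0.00209), and the viral RNA sensor gene Ddx58 was 3.21, 10.2 and 8.69 against 1.78, 3.72 and 2.05 FPKM (−1.17 ± 0.37, adjusted p = 0.0306) with overlapping groups.

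Matrix genes fell more often than they rose in the mutant fibroblasts. Of 35 matrix glycoproteins and proteoglycans, 17 fell and 5 rose (48.6% and 14.3%, against 23.1% and 26.7% of all genes tested). Their median was −0.84, and −0.82 with the trend removed, where 17 fell and 2 rose. The largest falls of the list were in 3 small leucine-rich proteoglycans. Asporin (Aspn) was 13.3, 84.2 and 109 FPKM in G5DM, against 2.11, 5.62 and 1.72 in G5TM (−3.74 ± 0.71, adjusted p = 0.00419), with G5DM replicate 1 lowest of its group. Lumican (Lum) was 13.8, 31.6 and 34.8 FPKM in G5DM, against 1.076, 1.85 and 1.22 in G5TM (−3.46 ± 0.33, adjusted p = 0.000497). Decorin (Dcn) was 9.39, 29.2 and 23.5 FPKM in G5DM, against 1.51, 1.33 and 1.04 in G5TM (−3.11 ± 0.36, adjusted p = 0.000862). In all 3 the mutant libraries lay below the wild-type ones. Fibronectin (Fn1), at 753, 1424 and 1233 FPKM in G5DM, against 330.1, 415 and 595 in G5TM, fell by 1.34 (adjusted p = 0.0188), and the crosslinking enzyme gene Lox by 2.12 (435, 807 and 699 against 118, 182 and 138 FPKM, adjusted p = 0.00234).

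Among 22 collagens 7 fell and 2 rose (31.8% and 9.09%, against 23.1% and 26.7% of all genes tested). Col8a1, a short-chain collagen, was 66.5, 94.3 and 73.5 FPKM in G5DM, against 9.03, 7.33 and 7.32 in G5TM (−3.14 ± 0.22, adjusted p = 0.000137), Col4a5 of basement membranes 24.5, 30.3 and 24.1 against 5.17, 7.91 and 4.08 FPKM (−2.05 ± 0.25, adjusted p = 0.000973), and Col12a1 97.5, 158 and 133 against 30.1, 41.0 and 44.3 (−1.72 ± 0.28, adjusted p = 0.00248). Of 17 smooth muscle contractile genes 7 fell (41.2%, against 23.1% of all genes tested) and none rose. They included the myosin gene Myh11 (14.1, 22.8 and 15.4 against 2.58, 1.31 and 3.03, −2.49 ± 0.27, adjusted p = 0.000689) and the integrin gene Itga8 (9.29, 10.0 and 10.1 against 1.06, 0.651 and 1.07, −2.49 ± 0.18, adjusted p = 0.00014). Caldesmon (Cald1) fell by 1.49, but not past the test with the trend removed (−0.56, adjusted p = 0.0618).

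In the TGF-beta list 11 of 33 genes fell and 5 rose (33.3% and 15.2%, against 23.1% and 26.7% of all genes tested). With the trend removed 9 were lower and 5 higher (median −0.05). The BMP antagonist gremlin (Grem1) was 159.9, 228 and 126 FPKM in G5DM, against 40.2, 21.1 and 14.8 in G5TM (−2.78 ± 0.39, adjusted p = 0.00156). The activin subunit gene Inhba was 29.5, 70.0 and 62.3 FPKM in G5DM, against 8.92, 5.73 and 18.7 in G5TM (−2.23 ± 0.44, adjusted p = 0.005). Of 23 insulin-like growth factor and imprinted genes 11 fell and 3 rose (47.8% and 13.0%, against 23.1% and 26.7% of all genes tested). The mannose-6-phosphate receptor gene Igf2r was 117, 154 and 137 FPKM in G5DM, against 18.96, 28.1 and 28.3 in G5TM (−2.40 ± 0.26, adjusted p = 0.000632). Peg3, a paternally expressed zinc finger gene, was 11.6, 50.9 and 77.2 FPKM in G5DM, against 2.79, 9.30 and 5.87 in G5TM (−2.53 ± 0.64, adjusted p = 0.0124). Nnat, also paternally expressed, rose (9.94, 9.49 and 7.37 to 63.0, 41.5 and 56.8 FPKM, 2.45 ± 0.24, adjusted p = 0.000497).

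Ribosomal protein genes rose in large part. Of 46 tested large subunit genes 36 rose and none fell (median 1.60), and of 32 small subunit genes 26 rose and none fell (median 1.87). These risers made up 78.3% and 81.2%, against 26.7% of all genes tested. After removal of the trend 34 and 23 were higher. Rpl12 (ENSMUSG00000038900, chromosome 2, 32961559 to 32965345) was 5.41, 3.98 and 3.84 FPKM in G5DM, against 609.7, 382 and 441 in G5TM (6.45 ± 0.26, adjusted p = 6.64e-06), the largest rise of any protein-coding gene tested. Over the series Rpl12 was 3.84 to 6.77 FPKM in 9 libraries and 300.4 to 609.7 in the 6 of G3TM and G5TM. Rps27 was 121, 51.8 and 48.5 FPKM in G5DM, against 1052, 777 and 875 in G5TM (3.71 ± 0.39, adjusted p = 0.000632). Rps29 was 92.3, 38.4 and 31.5 FPKM in G5DM, against 866, 519 and 579 in G5TM (3.70 ± 0.43, adjusted p = 0.000843). Many ribosomal protein genes have near-identical processed pseudogenes, and reads could be shared among them. Of 47 tested Rpl pseudogenes 30 were also higher (63.8%) and 1 lower (2.13%), so the level of any single gene is uncertain.

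Ribosome biogenesis had 19 of 36 genes higher (52.8%, against 26.7% of all genes tested) and none lower. Its median was 1.01, but 16 were higher and 7 lower at the same FPKM sum. Without the members named for ribosomal RNA processing (Rrp1, Rrp1b, Rrp9 and Rrp12), 15 of 32 were higher and the median was 0.62. At the same FPKM sum the median of these 32 was 0.08, with 12 higher and 7 lower. Rrp1 (ENSMUSG00000061032, chromosome 10, 78400384 to 78413043), a ribosomal RNA processing factor, was 0.780, 1.31 and 1.43 FPKM in G5DM, against 102, 73.5 and 94.1 in G5TM (5.38 ± 0.22, adjusted p = 6.64e-06). Rrp9 was 3.32, 1.496 and 1.196 FPKM in G5DM, against 70.3, 29.2 and 85.5 in G5TM (4.31 ± 0.42, adjusted p = 0.000497). A set picked after its values were seen shows how sharply such genes divided. The 7 tested genes that the table describes as ribosomal RNA processing (Rrp1, Rrp1b, Rrp7a, Rrp8, Rrp12, Rrp15 and Rrp36) were at most 3.18 FPKM in 9 libraries of the series and at least 5.66 in the 6 of G3TM and G5TM. The chaperone gene Hsp90aa1 ranged from 0.557 to 2.09 FPKM over the 9 libraries, against 40.4 to 73.2 over the 6, and the mitochondrial ribosomal RNA mt-Rnr1 0.488 to 1.31 and 46.8 to 77.8. The G1TM libraries, which carry the p53 mutant as well, were among the 9. Whether this division has a part in the other differences between G5TM and G5DM was not tested.

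Mitochondrial and nuclear parts of the respiratory chain went in opposite directions. Of 13 mRNAs encoded by mitochondrial DNA, 12 fell (92.3%, against 23.1% of all genes tested) and none rose (median −2.25). The complex I gene mt-Nd5 was 858, 1289 and 1185 FPKM in G5DM, against 128, 139 and 134 in G5TM (−3.02 ± 0.29, adjusted p = 0.000497). The gene mt-Nd4l was 33.0, 43.4 and 39.7 FPKM in G5DM, against 1.24, 1.48 and 3.21 in G5TM (−3.79 ± 0.27, adjusted p = 0.000137). Of 46 respiratory chain genes encoded in the nucleus, 33 rose (71.7%, against 26.7% of all genes tested) and none fell (median 1.27). Among the risers were Ndufa2 of complex I (41.8, 19.3 and 14.7 against 264, 201 and 147 FPKM, 3.06 ± 0.40, adjusted p = 0.00125) and Atp5k of the ATP synthase (16.6, 6.75 and 4.45 against 143, 92.7 and 110.2, 3.66 ± 0.41, adjusted p = 0.00078). In these 4 genes the groups did not overlap. Summed mitochondrial mRNAs were 11473 to 13448 FPKM in G5DM and 2347 to 2981 in G5TM. They were 2493 to 4129 in G3TM, but 9854 and 10578 in G1TM, which carries the p53 mutant too. The nuclear genes summed to 1672 to 3479 FPKM in G5DM, 5119 to 7379 in G5TM, 4195 to 7175 in G3TM, and 1924 and 2295 in G1TM. Whether the division of the libraries described above has a part in these differences was not tested.

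Redox and protein turnover genes rose more often than they fell. NRF2 and glutathione genes had 18 of 30 higher and none lower (median 1.06, 1.04 with the trend removed). The quinone reductase gene Nqo1 was 50.1, 18.5 and 11.6 FPKM in G5DM, against 182, 128 and 145 in G5TM (2.70 ± 0.47, adjusted p = 0.00308), and the glutathione transferase gene Gstp1 125, 49.8 and 61.2 against 418, 301 and 417 FPKM (2.35 ± 0.37, adjusted p = 0.00239). Proteasome subunits had 21 of 31 higher (67.7%) and 1 lower (3.23%), led by the catalytic subunit genes Psmb6 (57.0, 27.7 and 27.3 against 234, 146 and 219, 2.44 ± 0.35, adjusted p = 0.00176) and Psmb5 (2.22 ± 0.41, adjusted p = 0.00405). Of 26 unfolded protein and integrated stress response genes 9 rose (34.6%) and 4 fell (15.4%). Over all genes tested the shares were 26.7% and 23.1%. The list's median was 0.77. After trend removal 7 were higher and 3 lower (median 0.14), and without G5DM replicate 1, 16 were higher. Among them was the amino acid transporter gene Slc7a5, at 55.8, 14.0 and 12.3 FPKM in G5DM, against 72.1, 65.8 and 104 in G5TM (1.83 ± 0.52, adjusted p = 0.019). Its G5DM replicate 1 was near the mutant range.

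Glycolysis had 9 of 23 higher and 2 lower (39.1% and 8.7%, against 26.7% and 23.1% of all genes tested). Its median of 0.52 was −0.02 at the same FPKM sum. The risers included phosphofructokinase Pfkl (34.2, 36.9 and 27.1 against 98.8, 113 and 124 FPKM, 1.75 ± 0.24, adjusted p = 0.00143) and the lactate exporter gene Slc16a3 (1.77 ± 0.26, adjusted p = 0.00192). Gapdh, which has many pseudogenes, was 8.98, 3.70 and 3.39 FPKM in G5DM, against 4.80, 110.0 and 69.3 in G5TM (2.59 ± 0.95, adjusted p = 0.049). G5TM replicate 1 lay within the G5DM range, and the value is uncertain. Cholesterol synthesis had 9 of 25 higher (36.0%, against 26.7% of all genes tested) and none lower. After trend removal 5 were higher, and at the same FPKM sum 3 were higher and 2 lower. The mevalonate kinase gene Mvk was 26.9, 20.3 and 10.7 FPKM in G5DM, against 91.4, 86.1 and 40.5 in G5TM (1.86 ± 0.41, adjusted p = 0.00719), where replicate 3 was lowest in both groups. Aminoacyl-tRNA synthetases had 5 of 20 higher (25%) and 1 lower, and chaperones 9 of 31 higher (29.0%) and 2 lower, shares near those of all genes. Their medians of 0.55 and 0.34 were −0.01 and −0.23 at the same FPKM sum, and without G5DM replicate 1, 12 synthetases were higher. Immediate early genes had 10 of 23 higher and 2 lower (43.5% and 8.7%, against 26.7% and 23.1% of all genes tested). With the trend removed 6 were higher and 1 lower. The list was led by Junb (18.3, 17.7 and 9.72 to 71.1, 72.1 and 126 FPKM, 2.48 ± 0.33, adjusted p = 0.00131).

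**Figure D4:**
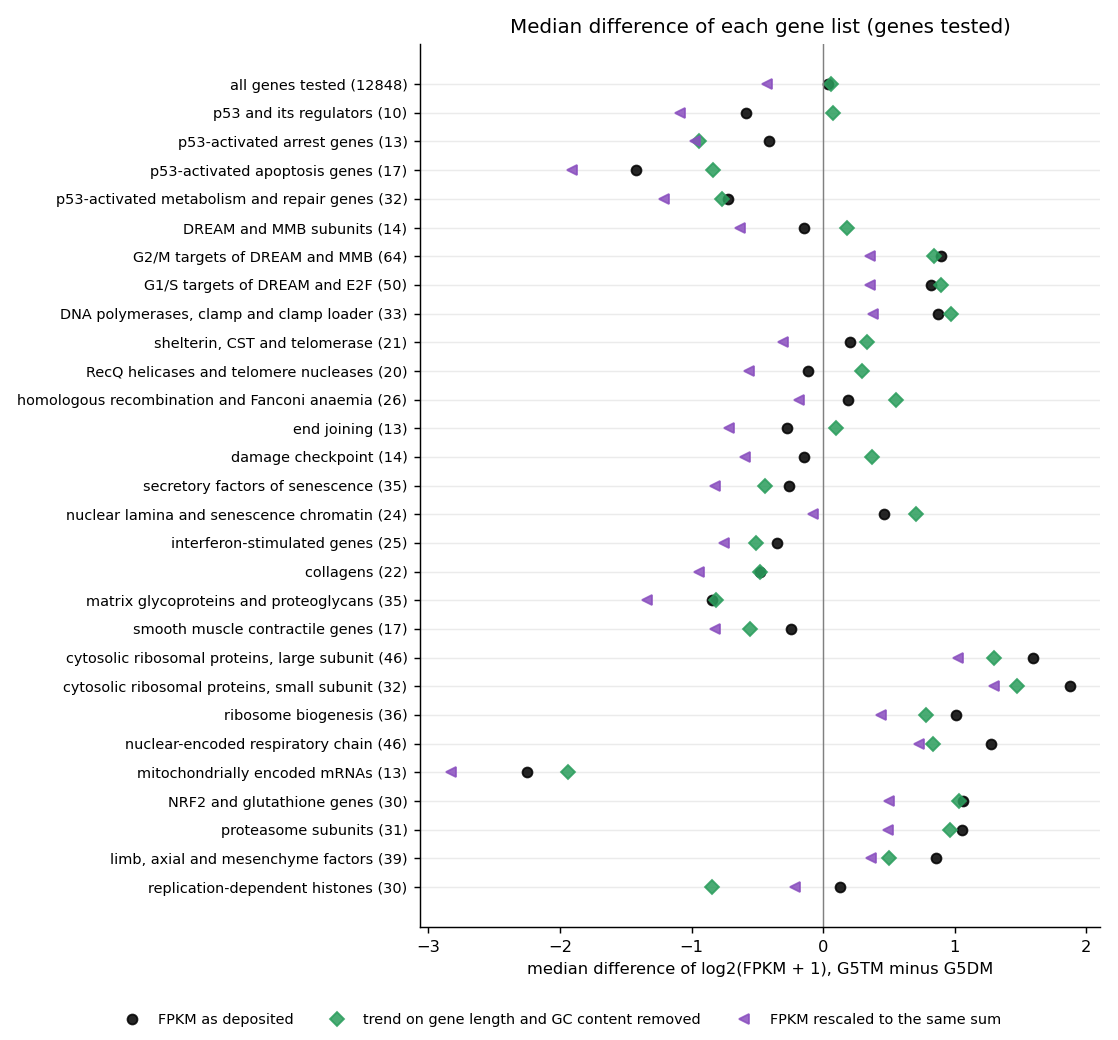
Median difference of log2(FPKM + 1), G5TM minus G5DM, for all genes tested and for each gene list (genes tested in brackets), with FPKM as deposited (circles), after removal of the trend on gene length and GC content (diamonds) and with FPKM rescaled to the same sum (triangles). The 3 lists of p53-activated genes and the matrix lie below 0 and the cell cycle, replication and ribosomal protein lists above 0 under all 3, while several repair and telomere lists change side.

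Large changes outside these groups were found too. Fbxo2, a glycoprotein-binding F-box gene, was 3.27, 1.22 and 2.32 FPKM in G5DM, against 33.6, 80.8 and 46.7 in G5TM (4.02 ± 0.35, adjusted p = 0.000398). The protease inhibitor gene Wfdc2 was 0.389, 0.0405 and 0.122 FPKM in G5DM, against 15.2, 6.43 and 15.6 in G5TM (3.42 ± 0.32, adjusted p = 0.000465). Gm1673 rose too (5.38, 1.73 and 2.54 to 56.4, 47.4 and 44.0 FPKM, 3.66 ± 0.31, adjusted p = 0.000339). The acute phase serpin gene Serpina3n was 22.5, 11.6 and 13.9 FPKM in G5DM, against 0.0890, 0.347 and 0.461 in G5TM (−3.67 ± 0.26, adjusted p = 0.000137). The angiotensin receptor gene Agtr2 was 3.35, 32.5 and 38.6 FPKM in G5DM, against 0.718, 1.84 and 0.161 in G5TM (−3.33 ± 0.76, adjusted p = 0.00835). In Agtr2, G5DM replicate 1 lay near the mutant libraries. Flrt2, a cell adhesion gene, fell (43.6, 109.7 and 83.4 against 6.81, 6.67 and 5.75 FPKM, −3.34 ± 0.33, adjusted p = 0.000525), as did the integrin-like gene Itgbl1 (−3.23 ± 0.27, adjusted p = 0.000319) and Serpinb9b (−3.35 ± 0.40, adjusted p = 0.000922).

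Several patterning genes separated the groups. Posterior Hox genes, which give position along the body and limb axes, were among those higher in G5TM. Hoxc10 (ENSMUSG00000022484, chromosome 15, 102966796 to 102971893) was 0.0290, 0.847 and 0.0364 FPKM in G5DM, against 7.28, 16.4 and 8.82 in G5TM (3.16 ± 0.33, adjusted p = 0.000632), Hoxa10 0, 0.664 and 2.63 FPKM in G5DM, against 5.94, 13.7 and 8.92 in G5TM (2.46 ± 0.45, adjusted p = 0.00387). Hoxd13 was 0.0223, 0.0744 and 2.35 FPKM in G5DM, against 3.70, 12.2 and 8.32 in G5TM (2.43 ± 0.51, adjusted p = 0.00611). Pitx1, the hindlimb selector gene, was 13.4, 1.98 and 0.275 FPKM in G5DM, against 36.5, 25.5 and 38.2 in G5TM (3.16 ± 0.73, adjusted p = 0.00871). G5DM replicate 1 had the highest Pitx1 of its group and no Hoxa10. Of 39 limb, axial and mesenchyme factors 16 rose and 3 fell (41.0% and 7.69%, against 26.7% and 23.1% of all genes tested). Hoxc8, Hoxc6 and Hoxb9 did not pass (−0.02, 0.28 and 0.49). Markers of other lineages were measured as well. The simple keratin genes Krt8 (0.424, 0.802 and 0.727 against 8.07, 6.84 and 18.6 FPKM, 2.77 ± 0.33, adjusted p = 0.00093), Krt18 (2.30) and Krt19 (2.07) rose, and the sum of 12 epithelial markers was 11.1 to 13.6 FPKM in G5DM and 41.8 to 96.1 in G5TM, with Epcam and Cdh1 under 1 FPKM in all 6. Cartilage markers summed to 55.6 to 114 FPKM in G5DM and 116 to 293 in G5TM, with Col2a1 at 27.2, 16.7 and 37.7 FPKM in G5DM, against 83.7, 197 and 219.6 in G5TM (2.53 ± 0.43, adjusted p = 0.00282) and Acan, aggrecan, at 0.979, 0.204 and 0.251 against 4.61, 10.2 and 22.1 (2.98 ± 0.46, adjusted p = 0.00216). Of 9 cartilage markers tested, 6 were higher (66.7%) and 1 lower (11.1%). With the trend removed 3 were higher and none lower, and at the same FPKM sum 3 and 1. The adipocyte regulators Cebpa (2.69 ± 0.22, adjusted p = 0.000263) and Pparg (1.63 ± 0.29, adjusted p = 0.00348) rose, while Adipoq was at 0 in every library. Neural and glial markers summed to 43.7 to 70.0 FPKM in G5DM, against 103 to 158 in G5TM, and skeletal muscle markers to 87.6 to 146, against 32.5 to 111. Of 15 neural and glial markers 10 were under 1 FPKM in all 6 libraries. Of the 5 tested 1 was higher and none lower (median 0.56, or 0.06 with the trend removed). Whether the tissue mix of the cultures has a part in the other differences was not tested.

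Whether a difference was particular to generation 5 was tested against generation 3, which shares no library with it. The contrast asked if G5TM minus G5DM differed from G3TM minus G3DM in a fit of all 15 libraries. It called 28 of 12848 genes (0.218%), 25 in which the generation 5 difference was the higher and 3 in which it was the lower. The count was 1810 without G5DM replicate 1 (383 higher and 1427 lower). It was 3 without G5TM replicate 3, 5 without G5TM replicate 2, 6 without G3DM replicate 2, 11 without G3DM replicate 1, 12 without G3TM replicate 2 or G5DM replicate 2, 14 without G3TM replicate 3 and 16 without G5DM replicate 3. It was also 11 with the length and GC trend removed and 4 with a filter of 5 FPKM. The count was 20 without G5TM replicate 1, 19 without G3TM replicate 1 and 38 with quantile normalization. Hoxc10 differed by 3.16 in generation 5 and by −0.60 in generation 3. The G5DM libraries stood apart here. Hoxc10 was 0.029, 0.847 and 0.0364 FPKM in G5DM and 4.28 to 12.8 in the 9 libraries of generations 1 and 3. No p53-activated gene of the lists was among the 28. Ccng1, Cdkn1a and Mdm2 differed by −3.88, −3.50 and −2.19 in generation 3, and the difference of differences did not pass for any of them (adjusted p = 0.23, 0.877 and 0.68). A p above the threshold does not show that the generations act alike.

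**Figure D5:**
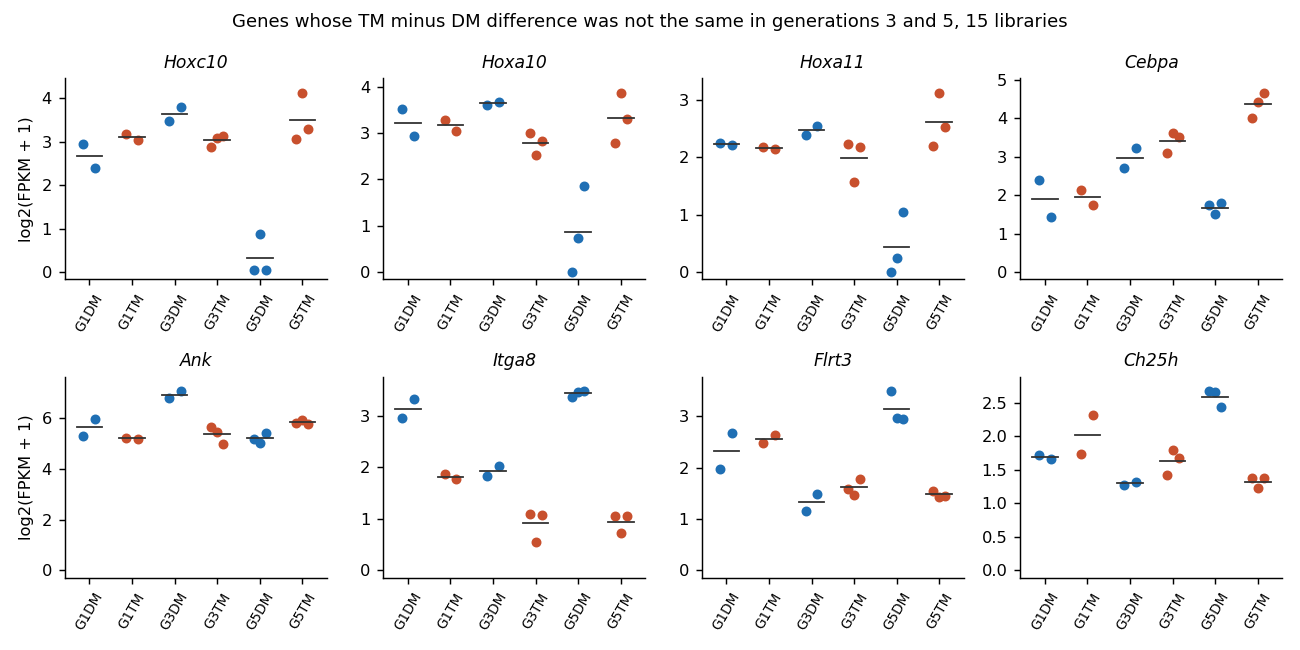
Values of log2(FPKM + 1) in each of the 15 libraries for 8 genes whose TM minus DM difference in generation 5 was not that of generation 3 (adjusted p under 0.05, limma), DM in blue and TM in red, with group means as bars. Hoxc10, Hoxa10 and Hoxa11 are low in the 3 G5DM libraries and higher in every library of the other groups, while Itga8, Flrt3 and Ch25h have their highest group mean in G5DM.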

How the data were processed

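Polyadenylated RNA of 15 fibroblast libraries was sequenced, and 6 of them are compared here. The authors deposited 1 table of FPKM per gene. Per the submitters' processing notes, the tools were HISAT2 2.0.5, DESeq2 1.20.0, CASAVA 1.8, featureCounts 1.5.0-p3 and fastp, with no role or order given. The genome build is not given in the sources used here, and the coordinates of 98.3% of gene IDs equal those of GENCODE vM21 (GRCm38). Whether counting used strand is not given either, so reads of a gene and an overlapping antisense gene cannot be told apart. FPKM values were whole multiples of 1 read in every library (within 0.05 of a read), which gave 17448588 to 25933487 reads in generation 5. This number limits the precision of low genes.

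From these values, log2(FPKM + 1) was fitted with limma 3.58.1 (R 4.3.3, empirical Bayes with an intensity trend, two-sided, Benjamini-Hochberg adjustment over 12848 genes, threshold 0.05), with the 2 genotypes as groups. Genes had to reach 1 FPKM in 2 or more of the 6 libraries. The difference between generations was a contrast over all 15 libraries. Alternatives were other pseudocounts, filters, scalings, covariates and left-out libraries. Removal of the trend on gene length and GC content used splines with 5 degrees of freedom in each library, and its use beside the generation contrast and the no-overlap count, a trend on length alone, its use without G5DM replicate 1, and a replicate block in the generation contrast were added after seeing the data. Promoter sequences are from RefSeq (GRCm38.p6).

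Members and gene lists were chosen with earlier results of these data known. Named genes were Trp53, Wrn, Terc, Mdm2, Cdkn1a, Cdkn2a, Mybl2 and Foxm1, the called protein-coding genes with the 15 highest and 15 lowest differences, without overlap and with a group mean of 5 FPKM or more, the 3 called members of each list with the largest difference, and, under the same conditions, the genes with the 5 largest differences in each direction in the generation contrast (3 genes were lower in all). Other genes were named after their values were seen. Sex-linked genes were left out of the ranking.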

Additional observations from a re-analysis of the deposited data

Results flagged for a closer look

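For 8 of the named genes the difference between p53 N236S and wild-type p53 in generation 5 was not that of generation 3, by the contrast over all 15 libraries (limma, adjusted p under 0.05). The values are the generation 5 difference minus the generation 3 difference on the log2(FPKM + 1) scale. They were 3.77 for Hoxc10, 3.31 for Hoxa10 and 2.67 for Hoxa11, patterning genes of the body and limb axes. They were 2.25 for Cebpa, a regulator of fat cell formation, and 2.20 for Ank, a membrane protein of pyrophosphate export. The value was −1.48 for Itga8, an integrin subunit, −1.95 for Flrt3, a cell adhesion gene, and −1.60 for Ch25h, the cholesterol hydroxylase. Hoxc10, Hoxa10 and Hoxa11 were low in the G5DM libraries alone among the 6 groups, while Ank was high in G3DM.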

How the results depend on the processing

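Of 2976 values of 143 named genes under the alternatives, 2735 kept direction and call, 231 lost the call, 9 gained it and 1 turned (Rif1, 0.0721 with the trend on length and GC content removed; the cause was not tested). Between the genotypes, FPKM rescaled to the same sum gave 1951 higher and 4797 lower genes, and a filter of 5 FPKM gave 1833 lower. With single libraries left out, 3689 to 8538 genes were called, 2108 to 4454 higher and 1581 to 4084 lower, and 7810 to 10157 did not overlap. The last count could not fall below 7628, because groups without overlap stay apart when a library is left out. Where 2 libraries of a group were left, the spread was pooled over both groups. The low ends came without G5DM replicate 2, and the high ends without G5DM replicate 1. The other settings kept these counts within 1.5 times.

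The generation contrast called 28 genes, 25 higher and 3 lower. With a pseudocount of 0.1 FPKM it called 17 (15 higher), and with a filter of 5 FPKM 4 (4 and 0). With quantile normalization it called 38 (33 higher and 5 lower), and with the length and GC trend removed 11 (8 higher). With single libraries left out (without a G3DM library, the other G3DM library was assumed to vary like the other groups) the counts were 3 to 1810, 3 to 383 higher and 0 to 1427 lower. Of 1800 counts of list members, 401 moved by more than 1.5 times. In the G2/M list, 30 to 35 members were higher and 0 to 14 lower with single libraries left out. In the matrix list 11 to 22 were lower, with the 11 without G5DM replicate 2.

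Whether replicate numbers pair the libraries was not settled. The deviations of same-numbered libraries from their group means correlated at 0.310, 0.332 and −0.0179. Replicates 1 and 2 correlated best with their own number, and replicate 3 did not. Deviations cancel out within each group, so these values depend on each other and cannot decide it. With a replicate block 6842 genes were called (3660 higher and 3182 lower), and 6 in the generation contrast (6 higher and 0 lower). Libraries of 17448588 to 25933487 reads limit what can be shown for genes near 1 FPKM.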

Other observations

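Replication-dependent histone genes, whose mRNAs normally lack a polyA tail, were called in both directions. Of 30 tested, 6 rose and 5 fell, shares under the 26.7% and 23.1% of all genes tested. Their median was 0.12, and −0.21 at the same FPKM sum. Hist1h2ao was 52.8, 20.8 and 51.0 FPKM in G5DM, against 8.17, 4.94 and 5.33 in G5TM (−2.49 ± 0.37, adjusted p = 0.00187). Hist1h4i was 13.5, 10.8 and 6.35 FPKM in G5DM, against 46.8, 40.6 and 29.6 in G5TM (1.87 ± 0.30, adjusted p = 0.00244). With the trend on length and GC content removed, 1 was higher and 15 lower. Copies of these genes are nearly identical, so reads of a single copy are uncertain.

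Among classes of transcript, 305 of 691 processed pseudogenes were higher (44.1%) and 68 lower (9.84%, median 0.70). Of 135 lincRNA genes 45 were lower (33.3%) and 20 higher (14.8%, median −0.43). All genes tested had 26.7% higher and 23.1% lower. Malat1, a nuclear noncoding RNA, was 29.6, 314 and 322 FPKM in G5DM, against 10.6, 20.5 and 26.7 in G5TM (−2.94 ± 0.83, adjusted p = 0.0194), with G5DM replicate 1 far below its fellows. H19, a maternally expressed growth regulator, was 1190, 1094 and 1438 FPKM in G5DM, against 1822, 2250 and 3134 in G5TM, higher in every mutant library but not past the test (0.93 ± 0.35, adjusted p = 0.0556).

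Of 6 skeletal muscle markers tested, 3 were higher and 1 lower, and with the trend on length and GC content removed none was higher and 1 lower. Myogenin (Myog) was 0.593, 0.432 and 0.395 FPKM in G5DM, against 1.97, 2.88 and 11.0 in G5TM (1.81 ± 0.46, adjusted p = 0.0122). The skeletal actin gene Acta1 was 129, 64.8 and 69.7 FPKM in G5DM, against 24.0, 8.07 and 28.4 in G5TM (−2.17 ± 0.46, adjusted p = 0.00659), and no library overlapped in either gene. With the trend removed Myog did not pass (1.02, adjusted p = 0.126), while Acta1 did (−3.09, adjusted p = 0.00193).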
